A study of Mus musculus with 16 samples.

Results

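Macrophages read interferons and the cytokines that restrain inflammation through a small set of paired receptor chains. The 10 genes described here encode those chains, and they were chosen by symbol among the 22287 genes of the table: Il10ra and Il10rb, Il4ra and Il13ra1, Il6ra and Il6st, Ifngr1 and Ifngr2, and Ifnar1 and Ifnar2. All 10 passed the expression filter that kept 12514 genes for testing. RNA-seq was done on bone marrow-derived macrophages (BMDMs) of C57BL/6J mice, 8 weeks old by the labels, from femoral bone marrow grown for 7 days in GM-CSF (GM) or M-CSF (M). The cells were grown on tissue culture-treated dishes (TC), which promote adherence, or on untreated polystyrene dishes (noTC). They then received vehicle, called steady state here, or LPS for 3 h. Crossing growth factor and dish gave GM-TC and GM-noTC with one factor and M-TC and M-noTC with the other, and the suffix LPS marks a challenged group (GM-TC-LPS and so on), so that there were 8 groups of 2 replicates, with no allele or transgene named in any of them. The study calls the replicates biological, but the sources used here do not say whether animals were pooled or whether groups shared a mouse, so p-values measure the spread between these libraries, which may in part be technical.

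The chains work in pairs. IL-10 binds the private chain Il10ra and signals with Il10rb, a chain shared with IL-22 and the lambda interferons. IL-4 and IL-13 meet on Il4ra, which pairs with the common gamma chain Il2rg for IL-4 alone or with Il13ra1 for both cytokines. IL-6 is caught by Il6ra, and Il6st (gp130) carries the signal for IL-6 and its relatives. Interferon gamma uses Ifngr1 and Ifngr2, and the type I interferons use Ifnar1 and Ifnar2. JAK kinases bound to the chains phosphorylate STAT factors: STAT3 for IL-10 and IL-6, STAT6 for IL-4 and IL-13, and STAT2, with IRF9, for type I interferon. In macrophages IL-10 limits cytokine output, IL-4 and IL-13 drive alternative activation, and the interferons prime microbicidal and antiviral genes.

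Total counts per library lay between 17527802 and 31458363, and every member had values far above the floor of 3 counts (0.0954 to 0.171 CPM, counting error only) except Il6ra upon LPS challenge, which stayed above it. Levels are CPM, counts scaled to library size, with TMM factors of 1.11 to 1.39 in the steady state libraries and 0.778 to 0.842 in those with LPS. The scaling matters for these genes. Scaled by library size only, the median change with LPS over all tested genes, on the log2 scale, moved to -0.53 (GM-TC), -0.54 (GM-noTC), -0.83 (M-TC) and -0.73 (M-noTC), and that of M against GM at steady state to 0.29 on both dishes, so the changes below are relative to the bulk of genes. Called means a BH-adjusted p under 0.05 in edgeR's quasi-likelihood test fitted over all 16 libraries. The macrophage markers were detected in all 8 groups, and none of the 7 was at 0 in both libraries of a group. Their summed level was 27700 to 45400 CPM at steady state and 18000 to 36700 CPM upon LPS challenge. This and the other marker sums are by library size without the TMM factors. Most of the sum was Lyz2, with a mean of 39700 CPM in GM-TC and 13280 in M-noTC-LPS. On TC at steady state Adgre1, Csf1r, Cd68 and Fcgr1 had higher means in M than in GM, and Lyz2, Itgam and Mertk had lower ones. Markers of dendritic cells summed to 803 to 1100 CPM in the GM groups and to 19.5 to 66.2 CPM in the M groups. Cardiac muscle markers summed to 26.4 to 87.6 CPM in the 4 libraries of GM-TC and M-TC and to 0.26 to 0.859 CPM in the other 12. In bulk RNA, fewer cells of a type and less RNA per cell cannot be told apart, and the part of these cells in the results below was not tested.

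LPS changed most of the receptor chains, and the receptors were not moved as a block. Il10ra, Il13ra1, Ifnar1 and Ifnar2 rose in all 4 cultures, the interferon chains in M only relative to the bulk of genes (with library size only they turned to between -0.28 and -0.13). Il6ra and Il6st fell in all 4. Il4ra fell in both GM cultures and rose in both M cultures, where M-noTC turned to -0.12 with library size only, and Ifngr1 and Ifngr2 moved by 0.33 or less on the log2 scale everywhere with TMM scaling. In GM-TC 5 of the 10 members rose and 4 fell, beside 32.8% and 34.2% of all tested genes. GM-noTC had 6 that rose and 3 that fell (33.6% and 34.0% of all genes), M-TC had 6 and 3 (37.6% and 36.4%), and M-noTC had 6 and 2 (36.4% and 35.9%). The members had a median log2 fold change of 0.21 (GM-TC), 0.26 (GM-noTC), 0.49 (M-TC) and 0.30 (M-noTC), where that of all genes was between -0.05 and -0.01. With 9, 9, 9 and 8 of 10 called, the share was above that of all genes, but each gene was picked by name and no test was made of the set. Of the genes called in the 4 comparisons 48.9% to 50.9% were higher, and 19.0% to 21.5% with library size only.

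**Figure D1:**
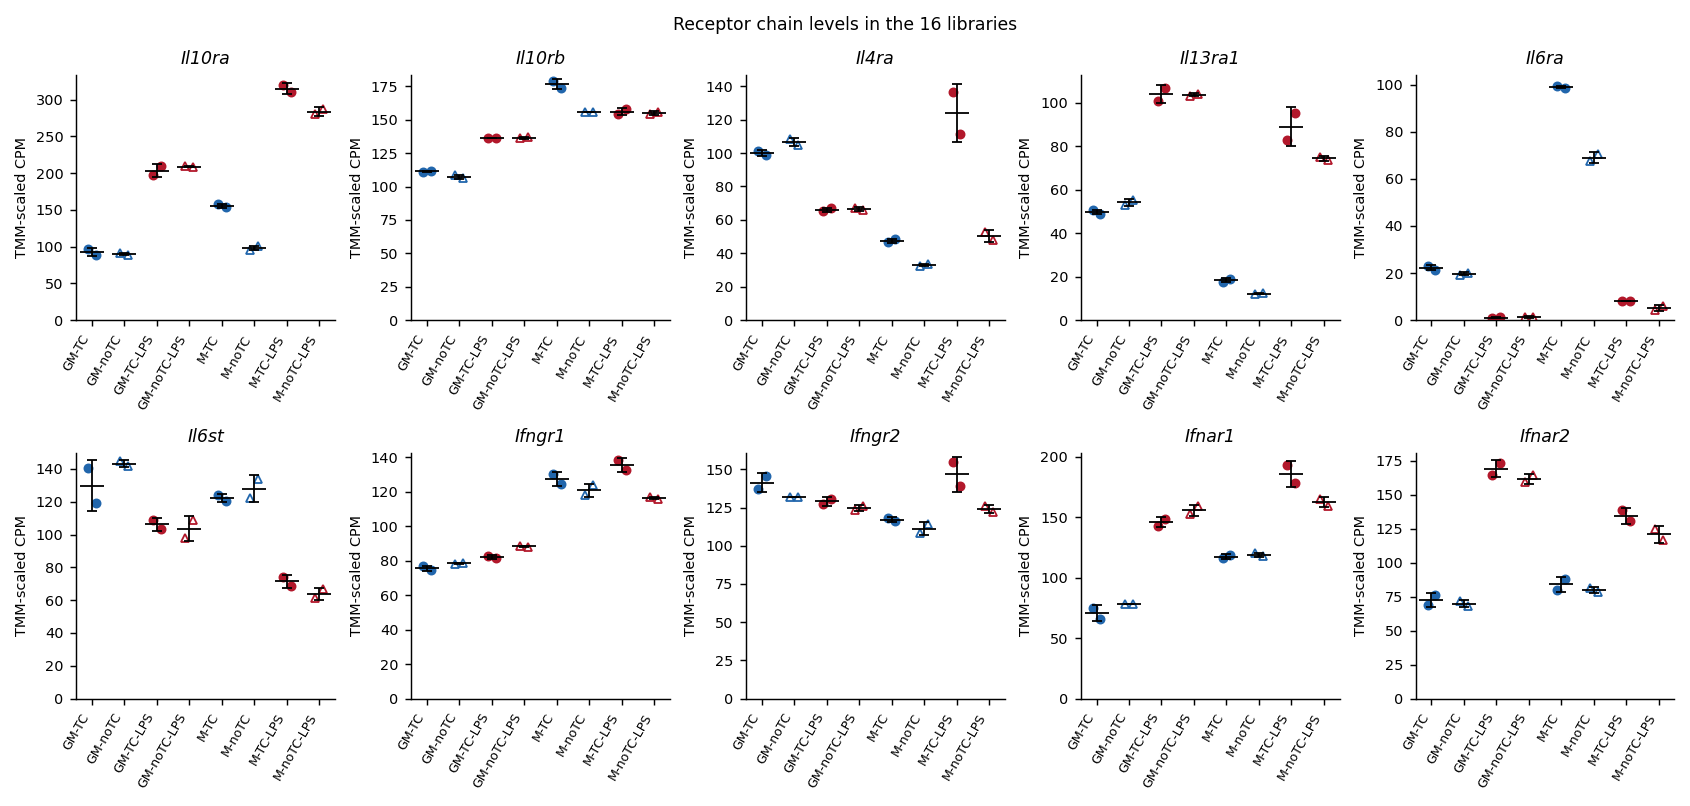
TMM-scaled CPM (y axis, from 0, its own range in each panel) of the 10 receptor genes in the 8 groups. Blue is steady state, red is LPS, filled circles are TC and open triangles are noTC libraries, and the black dash and bars are the mean ± SD of the 2 replicates. Il6ra was at 98.7 and 99.3 CPM in M-TC and between 0.931 and 8.02 CPM in the 8 LPS libraries. With TMM scaling Il4ra was highest in M-TC-LPS at 112 and 136 CPM. With library size only its mean there (97.3 CPM) was below those of GM-TC (111.9) and GM-noTC (120.0).

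**Figure D2:**
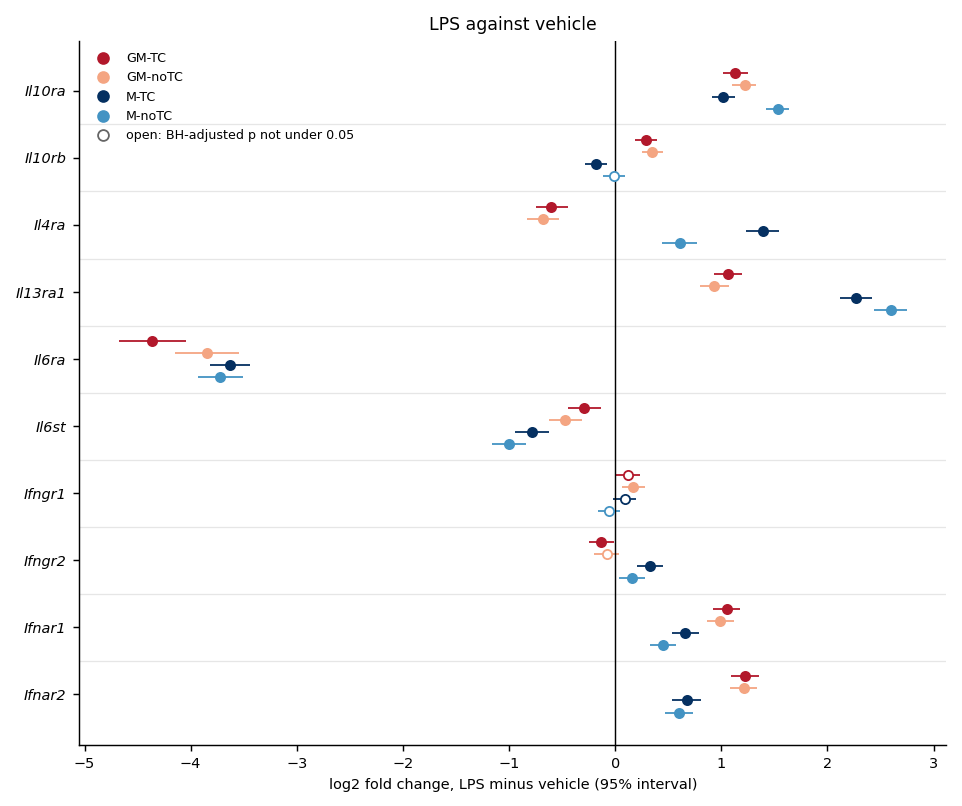
Log2 fold change of LPS over vehicle (x axis) for each receptor gene in the 4 cultures, with 95% intervals of edgeR's quasi-likelihood fit. Filled points have a BH-adjusted p under 0.05 and open points do not. Il4ra is the gene with called changes on both sides of 0 at sizes above 0.5, at -0.60 and -0.68 in GM and 1.39 and 0.61 in M, the last of which turned to -0.12 with library size only.

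Per kilobase of exon, the order of the 10 genes depended on the culture. At steady state in GM-TC, Ifngr2 was highest at 37.5 CPM per kb, followed by Il10rb at 29.2, Il10ra at 26.6, Ifngr1 at 26.5, Ifnar2 at 21.8, Il4ra at 16.7, Il13ra1 at 13.4, Ifnar1 at 11.9, Il6st at 11.7 and Il6ra at 2.57. Neighbours in that order did not overlap between replicates except Il10ra with Ifngr1 and Ifnar1 with Il6st. M-TC had Il10rb at 46.3, Ifngr1 at 44.8 and Il10ra at 44.5 CPM per kb at the top, which overlapped, and Il4ra at 7.91 and Il13ra1 at 4.97 at the bottom. Upon LPS challenge Il10ra led in all 4 groups, from 58.2 CPM per kb in GM-TC-LPS to 90.1 in M-TC-LPS, and Il6ra was last in all 4, from 0.124 to 0.925. These lengths are exonic lengths of the GENCODE M21 annotation, whereas the annotation the authors counted on is not given in the sources used here.

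The private chain of the IL-10 receptor rose with LPS while its shared partner moved by 0.35 or less on the log2 scale with TMM scaling. Il10ra (ENSMUSG00000032089, chromosome 9) had 97.0 and 89.2 CPM in GM-TC and 90.9 and 88.5 CPM on the noTC dish, which LPS brought to 197 and 210.0 CPM (GM-TC-LPS) and 209 and 208 CPM (GM-noTC-LPS). M-TC had 158 and 154 CPM, M-noTC 96.1 and 100.3, M-TC-LPS 320.3 and 309.9, and M-noTC-LPS 280.0 and 288. With TMM scaling all LPS libraries lay above all steady state libraries. LPS raised it on the log2 scale by 1.13 (SE 0.0552, GM-TC), 1.22 (SE 0.0549, GM-noTC), and by 1.02 (SE 0.0533) and 1.53 (SE 0.0541) in the M cultures on TC and noTC, with BH-adjusted p between 6.5e-17 and 8.9e-14. Scaled by library size only the rises were 0.65, 0.71, 0.19 and 0.80 in the same order, all called. M-TC cells held more Il10ra than GM-TC cells, 1.67-fold at steady state and 1.55-fold with LPS. On noTC dishes the steady state difference was 0.13 (BH-adjusted p = 0.043) and did not pass without either GM-noTC library or without M-noTC replicate 2, where the BH-adjusted p was 0.066, 0.17 and 0.2. M-noTC cells had 1.59-fold less Il10ra than M-TC cells (log2 fold change -0.66, BH-adjusted p = 5.6e-09), and with LPS the value was -0.15 (BH-adjusted p = 0.042), a call lost without any one of the 4 libraries (BH-adjusted p between 0.07 and 0.23). The LPS response of M cells differed by dish, by 0.51 (SE 0.0751, BH-adjusted p = 8.3e-05), with the larger rise on noTC.

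Il10rb (ENSMUSG00000022969, chromosome 16) had 111 and 111 CPM in GM-TC and 108 and 106 CPM on the noTC dish, which LPS brought to 136 and 136 CPM (GM-TC-LPS) and 136 and 137 CPM (GM-noTC-LPS). M-TC had 179 and 174 CPM, M-noTC 156 and 156, M-TC-LPS 154 and 158, and M-noTC-LPS 154 and 156. With LPS it rose by 0.29 in GM-TC and 0.35 in GM-noTC (BH-adjusted p = 1.7e-05 and 1.6e-06), dropped by 0.18 in M-TC (BH-adjusted p = 0.0021) and was at -0.01 in M-noTC (95% interval -0.11 to 0.09). Scaled by library size only, both GM changes turned to -0.19 and -0.16, which is above the median of all genes under that scaling by 0.34 and 0.38, and the M changes became -1.0 (M-TC) and -0.74 (M-noTC, BH-adjusted p = 4.2e-12). The dish contrast in M at steady state was -0.18 (BH-adjusted p = 0.0065), a call lost without M-TC replicate 1 (BH-adjusted p = 0.072). The growth factor difference in the response was -0.47 on TC and -0.36 on noTC (BH-adjusted p = 7.5e-06 and 0.00021). Within each library the ratio of Il10ra to Il10rb per kb, which no scaling changes, was 0.871 to 0.949 in GM-TC, 0.907 to 0.914 in GM-noTC, 0.959 to 0.962 in M-TC and 0.671 to 0.70 in M-noTC. It reached 1.57 to 1.68 in the GM-LPS libraries, and 2.13 to 2.26 in M-TC-LPS and 1.98 to 2.01 in M-noTC-LPS. A read-through gene, Gm21970, shares 569 exon bases with Il10rb and 315 with Ifnar2, and it held 10 counts over the 16 libraries.

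**Figure D3:**
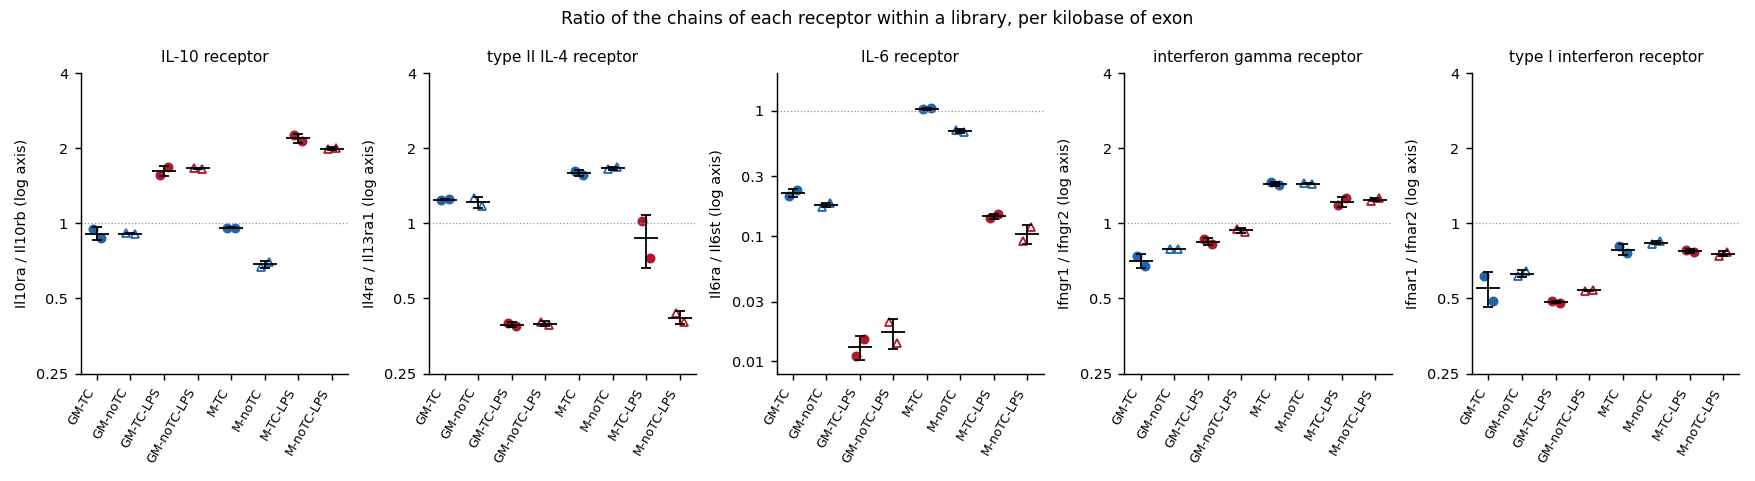
Ratio of the 2 chains of each receptor in each library, per kb of exon (log axis, dotted line at 1). Blue is steady state, red is LPS, circles are TC, triangles are noTC, and the dash and bars are the mean ± SD of 2 replicates. The ratio of Il10ra to Il10rb was below 1 in all 8 steady state libraries and between 1.57 and 2.26 in all 8 LPS libraries, and that of Il6ra to Il6st fell from 1.04 in M-TC to 0.144 in M-TC-LPS.

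The IL-4 receptor alpha chain responded to LPS in opposite directions in the GM and M cultures. Il4ra (ENSMUSG00000030748, chromosome 7) had 101 and 98.6 CPM in GM-TC and 108 and 105 CPM on the noTC dish, which LPS brought to 65.1 and 67.0 CPM (GM-TC-LPS) and 67.3 and 65.6 CPM (GM-noTC-LPS). M-TC had 46.6 and 48.4 CPM, M-noTC 32.5 and 33.6, M-TC-LPS 136 and 112, and M-noTC-LPS 53.0 and 47.7. At steady state both GM groups were above both M groups without overlap, and with TMM scaling M-TC-LPS was above all other libraries. With library size only, M-TC-LPS had a mean of 97.3 CPM, below GM-TC (111.9 CPM) and GM-noTC (120.0 CPM). LPS lowered Il4ra by 1.51-fold in GM-TC (log2 fold change -0.60, SE 0.0744, BH-adjusted p = 3.1e-07) and 1.60-fold in GM-noTC (-0.68, SE 0.0734, BH-adjusted p = 3.5e-08). It raised Il4ra by 2.62-fold in M-TC (1.39, SE 0.0751, BH-adjusted p = 1.6e-13) and 1.52-fold in M-noTC (0.61, SE 0.0791, BH-adjusted p = 5e-07). Under library size only, M-TC stayed at 0.56 (BH-adjusted p = 1.2e-06) but M-noTC turned to -0.12 (BH-adjusted p = 0.19), 0.61 above the median of all genes. The difference between M and GM responses was 1.99 on TC (SE 0.106, BH-adjusted p = 1.5e-12) and 1.29 on noTC (SE 0.108, BH-adjusted p = 3e-09), and 1.64 and 1.07 with library size only.

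Dish surface mattered for Il4ra in the M cultures. M-noTC had less Il4ra than M-TC at steady state (-0.52, 95% interval -0.68 to -0.36, BH-adjusted p = 2.3e-05) and upon LPS challenge (-1.30, 95% interval -1.46 to -1.14, BH-adjusted p = 1.3e-10). The same contrast in GM was 0.09 at steady state and 0.01 with LPS, neither called. The difference of the dish contrast between M and GM was -0.61 at steady state (BH-adjusted p = 0.00044) and -1.31 with LPS (BH-adjusted p = 6.4e-08). The LPS rise in M was smaller on noTC by 0.78 (SE 0.109, BH-adjusted p = 4.5e-05). M-TC-LPS was the group with the widest spread for this gene, 124 ± 17.5 CPM (SD, n = 2). The annotation places an antisense gene, Gm44876, over 571 exon bases of Il4ra, and the strand setting of the counting is not given in the sources used here, so reads of both would not be told apart.

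Il13ra1, which joins Il4ra in the type II receptor for IL-4 and IL-13, rose with LPS in all 4 cultures and most in M. The bases before its start, read from RefSeq, are shown because it is one of 6 genes that moved the same way in all 4 comparisons with LPS. The line gives 250 bases upstream of the start in build GRCm38.p6, chrX:36111858-36112107, 5′ to 3′ on the plus strand.
Il13ra1: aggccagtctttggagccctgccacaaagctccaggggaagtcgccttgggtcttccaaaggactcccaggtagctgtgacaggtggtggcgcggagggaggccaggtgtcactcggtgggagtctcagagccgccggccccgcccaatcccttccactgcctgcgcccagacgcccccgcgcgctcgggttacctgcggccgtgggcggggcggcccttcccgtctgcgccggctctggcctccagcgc

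Capitals in such lines mark a match to one of 4 motifs searched on both strands of the 300 bases around the start: a STAT site (TTCNNNGAA), an interferon response element core (GAAANNGAA), a kappa B core (GGGANTTTC) and a PU.1 core (GAGGAAGT). Of 32851 promoters of that length in the table, 8.30% held the STAT site, 8.56% the interferon response element core, 1.11% the kappa B core and 3.20% the PU.1 core. No match was in the Il13ra1 window. RefSeq's table had promoters for 8 of the 10 members, not for Il10ra and Il10rb.

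Il13ra1 (ENSMUSG00000017057, chromosome X) had 50.5 and 49.0 CPM in GM-TC and 53.2 and 55.4 CPM on the noTC dish, which LPS brought to 101 and 107 CPM (GM-TC-LPS) and 103 and 104 CPM (GM-noTC-LPS). M-TC had 17.8 and 19.1 CPM, M-noTC 12.2 and 12.4, M-TC-LPS 82.7 and 95.4, and M-noTC-LPS 75.1 and 73.6. The M groups started far below the GM groups and came close to them upon LPS challenge. The rise was 2.09-fold in GM-TC and 1.91-fold in GM-noTC, against 4.82-fold in M-TC (log2 fold change 2.27, SE 0.0731, BH-adjusted p = 1.1e-17) and 6.06-fold in M-noTC (2.60, SE 0.0745, BH-adjusted p = 1.4e-18). M responses were larger than GM responses by 1.20 on TC (SE 0.0987, BH-adjusted p = 1.7e-09) and 1.67 on noTC (SE 0.0987, BH-adjusted p = 1.2e-11). The deficit of M against GM was -1.43 on TC and -2.15 on noTC at steady state and -0.23 and -0.48 with LPS. The value of -0.23 on TC with LPS lost its call without M-TC-LPS replicate 1 (-0.12, BH-adjusted p = 0.13) and without GM-TC-LPS replicate 2 (-0.18, BH-adjusted p = 0.058). On noTC dishes M cells had 1.5-fold less Il13ra1 than on TC at steady state (-0.59, BH-adjusted p = 1.1e-05) and 1.2-fold less with LPS (-0.26, BH-adjusted p = 0.006). Without M-TC-LPS replicate 2 the last value was -0.15 (BH-adjusted p = 0.15), and without M-noTC-LPS replicate 2 it was -0.24 (BH-adjusted p = 0.051). The ratio of Il4ra to Il13ra1 per kb was 1.17 to 1.68 in the 8 steady state libraries and 0.387 to 1.02 in the LPS libraries. It stood at 0.387 to 0.403 in GM-TC-LPS and GM-noTC-LPS, 0.401 and 0.437 in M-noTC-LPS, and 1.02 and 0.724 in M-TC-LPS.

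The ligand-binding chain of the IL-6 receptor was the member with the largest change. Il6ra, the chain that is also shed to act in trans, and Il6st, the signal chain, both fell in all 4 cultures, so their upstream bases are shown together, in the same build and 5′ to 3′ on the gene's strand (Il6ra chr3:89913197-89913446, minus strand, and Il6st chr13:112463820-112464069, plus strand).
Il6ra: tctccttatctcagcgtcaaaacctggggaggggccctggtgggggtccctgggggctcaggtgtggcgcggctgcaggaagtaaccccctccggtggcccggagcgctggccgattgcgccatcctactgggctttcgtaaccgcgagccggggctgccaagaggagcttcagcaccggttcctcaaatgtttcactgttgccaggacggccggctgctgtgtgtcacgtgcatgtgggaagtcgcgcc
Il6st: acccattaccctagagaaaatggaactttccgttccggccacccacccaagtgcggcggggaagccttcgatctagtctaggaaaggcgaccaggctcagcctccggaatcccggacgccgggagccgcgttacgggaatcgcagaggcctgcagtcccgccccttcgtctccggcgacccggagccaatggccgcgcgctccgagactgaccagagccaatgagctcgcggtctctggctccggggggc

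Neither window held any of the 4 motifs. Il6ra (ENSMUSG00000027947, chromosome 3) had 23.0 and 21.5 CPM in GM-TC and 19.4 and 20.2 CPM on the noTC dish, which LPS brought to 0.931 and 1.21 CPM (GM-TC-LPS) and 1.56 and 1.19 CPM (GM-noTC-LPS). M-TC had 99.3 and 98.7 CPM, M-noTC 67.5 and 70.6, M-TC-LPS 8.02 and 7.96, and M-noTC-LPS 4.36 and 6.09. Every LPS library lay below every steady state library. The fall was 20.5-fold in GM-TC (log2 fold change -4.36, SE 0.155, BH-adjusted p = 1e-16), 14.4-fold in GM-noTC (-3.85, SE 0.146), 12.4-fold in M-TC (-3.63, SE 0.0931) and 13.2-fold in M-noTC (-3.72, SE 0.0999), with BH-adjusted p of 3.6e-16, 1.7e-19 and 4.4e-19 in the last 3. M cells had more Il6ra than GM cells throughout, 4.46-fold on TC and 3.49-fold on noTC at steady state and 7.4-fold and 3.81-fold with LPS. On noTC dishes M cells had 1.43-fold less than on TC at steady state (-0.52, BH-adjusted p = 5e-06) and 1.53-fold less with LPS (-0.61, BH-adjusted p = 0.0024). Without M-noTC-LPS replicate 1 the latter was -0.39 with a BH-adjusted p of 0.082. The annotation has an antisense gene, Gm42809, over 242 exon bases of Il6ra.

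Il6st (ENSMUSG00000021756, chromosome 13) fell far less. It had 141 and 119 CPM in GM-TC and 145 and 142 CPM on the noTC dish, which LPS brought to 109 and 104 CPM (GM-TC-LPS) and 98.2 and 109 CPM (GM-noTC-LPS). M-TC had 124 and 121 CPM, M-noTC 122 and 134, M-TC-LPS 74.2 and 68.6, and M-noTC-LPS 61.1 and 66.5. Its changes with LPS were -0.29 (GM-TC), -0.47 (GM-noTC), -0.78 (M-TC) and -1.0 (M-noTC) on the log2 scale, with BH-adjusted p of 0.0019, 9e-06, 6e-09 and 7.9e-11. Without GM-TC replicate 1 the first was -0.15 with a BH-adjusted p of 0.068. The fall was larger in M than in GM by 0.49 on TC and 0.54 on noTC (BH-adjusted p = 0.0008 and 0.00035). At steady state M against GM was -0.08 on TC (95% interval -0.24 to 0.07, and -0.20 with a BH-adjusted p of 0.016 without GM-TC replicate 2) and -0.16 on noTC (95% interval -0.31 to -0.01, BH-adjusted p = 0.054), and with LPS it was -0.57 and -0.70, both called. Under library size only the first became 0.23 (BH-adjusted p = 0.0099), where the median of all genes was 0.29. The ratio of Il6ra to Il6st per kb fell from 0.172 to 0.232 in the GM steady state libraries to 0.011 to 0.0205 with LPS, and from 1.03 and 1.05 to 0.139 and 0.149 in M-TC.

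With TMM scaling the interferon gamma receptor was the steadiest of the 5 receptors under LPS. This order depended on the scaling. Under library size only, Ifngr1 and Ifngr2 in M changed by -0.78 to -0.50, and Ifnar1 and Ifnar2 in M by -0.28 to -0.13. Ifngr1 (ENSMUSG00000020009, chromosome 10), the chain that binds interferon gamma, had 76.7 and 74.4 CPM in GM-TC and 78.4 and 78.4 CPM on the noTC dish, which LPS brought to 82.8 and 81.5 CPM (GM-TC-LPS) and 88.6 and 88.0 CPM (GM-noTC-LPS). M-TC had 130 and 124 CPM, M-noTC 118 and 124, M-TC-LPS 138 and 133, and M-noTC-LPS 117 and 116. All M libraries lay above all GM libraries, while LPS and steady state libraries of the same culture were close. M cells had 1.69-fold more Ifngr1 than GM cells on TC and 1.54-fold more on noTC at steady state, and 1.65-fold and 1.32-fold more with LPS (BH-adjusted p between 3.2e-11 and 9e-07). The LPS change was 0.12 in GM-TC (95% interval 0.01 to 0.23, BH-adjusted p = 0.054), 0.17 in GM-noTC (BH-adjusted p = 0.0075), 0.09 in M-TC (95% interval -0.02 to 0.20) and -0.06 in M-noTC (95% interval -0.16 to 0.05). Scaled by library size only these were -0.36, -0.34, -0.74 and -0.78, all called as lower and all within 0.20 of the median of all genes under that scaling. Upon LPS challenge M-noTC had less Ifngr1 than M-TC (-0.22, BH-adjusted p = 0.0041), and without M-TC-LPS replicate 1 this was -0.19 with a BH-adjusted p of 0.052.

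Ifngr2 (ENSMUSG00000022965, chromosome 16), the chain that completes the signalling receptor, had 137 and 146 CPM in GM-TC and 132 and 132 CPM on the noTC dish, which LPS brought to 127 and 131 CPM (GM-TC-LPS) and 123 and 126 CPM (GM-noTC-LPS). M-TC had 118 and 116 CPM, M-noTC 108 and 114, M-TC-LPS 155 and 139, and M-noTC-LPS 126 and 122. LPS raised it in M, by 0.33 in M-TC (BH-adjusted p = 2.7e-05) and 0.16 in M-noTC (BH-adjusted p = 0.018), and the values in GM were -0.13 in GM-TC (BH-adjusted p = 0.047) and -0.08 in GM-noTC (BH-adjusted p = 0.23). The GM-TC call was lost with DESeq2, DESeq2's size factors, no expression filter, only the libraries of the comparison and the replicate block (BH-adjusted p between 0.052 and 0.19), and the M-noTC call without replicate 1 of M-noTC (BH-adjusted p = 0.12) or of M-noTC-LPS (BH-adjusted p = 0.11). Under library size only M-TC and M-noTC turned to -0.50 and -0.57, which was 0.33 and 0.16 above the median of all genes. The ratio of Ifngr1 to Ifngr2 per kb was 0.675 to 0.951 in the 8 GM libraries and 1.18 to 1.46 in the 8 M libraries. At steady state M against GM was -0.27 on TC and -0.25 on noTC, which library size only turned to 0.04 on both. With LPS M-noTC had less than M-TC (-0.24, BH-adjusted p = 0.0038), a call lost without M-TC-LPS replicate 1 (BH-adjusted p = 0.11). Its promoter window held a kappa B core on the minus strand, at position -74 from RefSeq's start, and the bases after that start were not found in the gene's GENCODE M21 transcripts.

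Both chains of the type I interferon receptor rose with LPS, and more in GM than in M. Ifnar1 and Ifnar2 are neighbours of Il10rb and Ifngr2 on the plus strand of chromosome 16, in the order Ifnar2, Il10rb, Ifnar1 and Ifngr2 with only Gm21970 among the protein-coding genes between them. Their upstream windows each held a STAT site, at position -214 in Ifnar2 and at -5 in Ifnar1, where the last 4 of the 9 bases of TTCACGGAA lie past the start and are not in the line. Positions count from RefSeq's start, and for Ifnar1 the bases after that start were not found in the GENCODE M21 transcripts. The windows are chr16:91484965-91485214 for Ifnar1 and chr16:91372533-91372782 for Ifnar2, both on the plus strand.
Ifnar1: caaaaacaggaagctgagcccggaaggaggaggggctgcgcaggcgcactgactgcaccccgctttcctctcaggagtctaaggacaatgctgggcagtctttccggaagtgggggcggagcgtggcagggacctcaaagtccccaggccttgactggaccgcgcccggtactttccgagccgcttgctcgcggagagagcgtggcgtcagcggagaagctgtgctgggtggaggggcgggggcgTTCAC
Ifnar2: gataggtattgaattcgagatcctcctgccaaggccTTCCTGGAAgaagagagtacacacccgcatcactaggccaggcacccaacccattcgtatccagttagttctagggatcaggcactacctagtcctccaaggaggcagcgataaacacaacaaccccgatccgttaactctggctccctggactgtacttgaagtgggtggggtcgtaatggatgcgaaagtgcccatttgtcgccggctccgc

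Ifnar1 (ENSMUSG00000022967) had 75.3 and 66.2 CPM in GM-TC and 78.4 and 78.4 CPM on the noTC dish, which LPS brought to 143 and 149 CPM (GM-TC-LPS) and 153 and 159 CPM (GM-noTC-LPS). M-TC had 116 and 119 CPM, M-noTC 120.3 and 118, M-TC-LPS 194 and 178, and M-noTC-LPS 165 and 160. With TMM scaling every LPS library lay above every steady state library. In both GM-noTC libraries the table lists the same count for Ifnar1 and Ifngr1, 1923 and 2122, as it does for 12 pairs in all among the 3791 genes with 1000 or more counts in each of these libraries. The rise was 2.07-fold in GM-TC (log2 fold change 1.05, SE 0.0622), 1.99-fold in GM-noTC (0.99, SE 0.061), 1.58-fold in M-TC (0.66, SE 0.0597) and 1.36-fold in M-noTC (0.45, SE 0.0591), with BH-adjusted p between 1.2e-12 and 5.7e-07. Under library size only the M values turned to -0.16 and -0.28, 0.67 and 0.45 above the median of all genes, while the GM values stayed at 0.57 and 0.48. M cells had more Ifnar1 at steady state, 1.66-fold on TC and 1.52-fold on noTC, and the excess with LPS was 1.27-fold on TC (BH-adjusted p = 2.5e-05) and 1.04-fold on noTC (95% interval of the log2 fold change -0.06 to 0.18). The response in M was smaller than in GM by 0.39 on TC and 0.54 on noTC (BH-adjusted p = 0.00093 and 2.2e-05). With LPS M-noTC had 1.14-fold less than M-TC (-0.19, BH-adjusted p = 0.021), a call lost without M-TC-LPS replicate 1 or either M-noTC-LPS library (BH-adjusted p between 0.064 and 0.25).

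Ifnar2 (ENSMUSG00000022971), the chain that binds type I interferons most tightly, had 68.9 and 76.3 CPM in GM-TC and 71.6 and 68.4 CPM on the noTC dish, which LPS brought to 165 and 174 CPM (GM-TC-LPS) and 159 and 165 CPM (GM-noTC-LPS). M-TC had 80.0 and 88.0 CPM, M-noTC 81.5 and 78.1, M-TC-LPS 139 and 130, and M-noTC-LPS 125 and 117. The order of the growth factors turned with LPS. At steady state M was above GM by 0.21 on TC and 0.19 on noTC (BH-adjusted p = 0.0087 and 0.015), calls lost without any of 4 libraries (GM-TC replicate 1, M-TC replicate 2, GM-noTC replicate 2 and M-noTC replicate 1, BH-adjusted p between 0.054 and 0.12), and with LPS it was below by 0.33 and 0.42 (BH-adjusted p = 8.6e-05 and 4.3e-06). LPS raised Ifnar2 2.33-fold in GM-TC and 2.31-fold in GM-noTC against 1.60-fold in M-TC and 1.51-fold in M-noTC, and the responses differed by -0.54 on TC (SE 0.0911, BH-adjusted p = 4.9e-05) and -0.61 on noTC (SE 0.0904, BH-adjusted p = 1.1e-05). Library size only turned the M values to -0.15 and -0.13, 0.69 and 0.60 above the median of all genes. The ratio of Ifnar1 to Ifnar2 per kb stayed between 0.48 and 0.643 in the GM libraries and between 0.742 and 0.847 in the M libraries.

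Across the 10 genes, the growth factor had about as many called chains as LPS did when changes of any size were counted. M against GM on TC had 6 members higher and 3 lower, beside 28.9% and 32.6% of all genes. On noTC it was 6 and 3 (30.7% and 31.4%), on TC with LPS 7 and 3 (32.9% and 33.9%), and on noTC with LPS 4 and 4 (32.6% and 33.5%). Il10ra, Il10rb, Il6ra and Ifngr1 were higher in M in all 4 comparisons, and Il13ra1 was lower in M in all 4. Of the genes called at steady state 47.0% (TC) and 49.4% (noTC) were higher in M, and 72.1% and 72.5% with library size only. The tests of the difference in LPS response between the growth factors called 8 members on TC and 9 on noTC, where 41.1% and 36.2% of all genes were called. Of these 56.8% and 53.4% were more positive in M, and 21.1% and 26.8% with library size only.

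**Figure D4:**
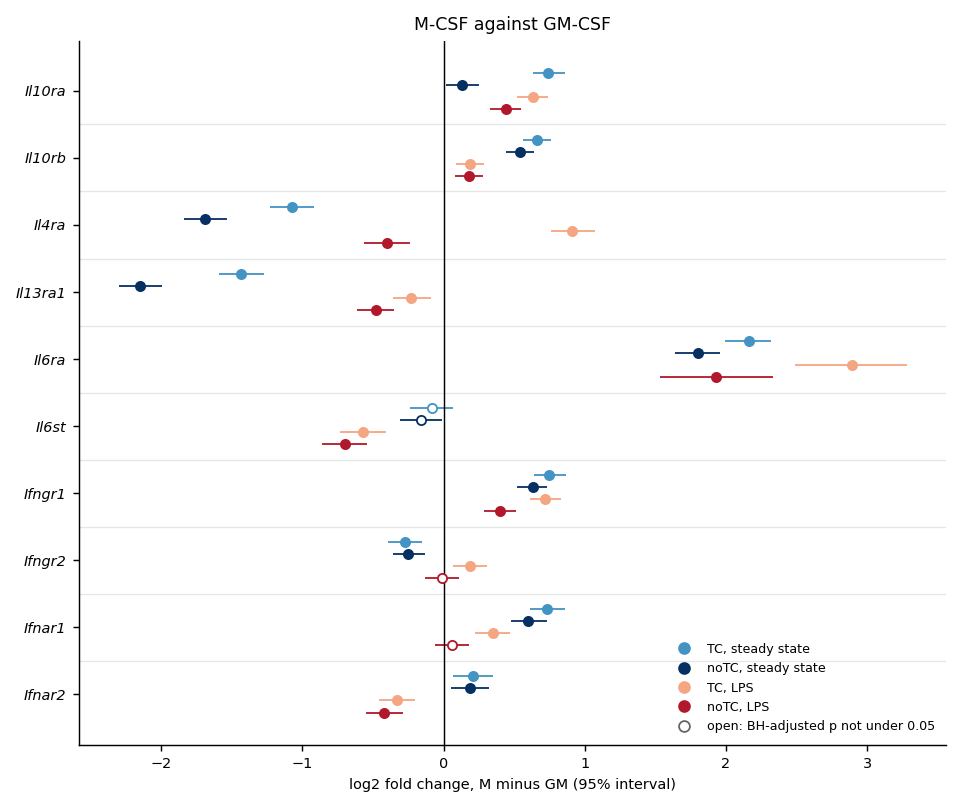
Log2 fold change of M over GM (x axis) for each receptor gene on both dishes at steady state and with LPS, with 95% intervals. Filled points have a BH-adjusted p under 0.05 in edgeR's quasi-likelihood test. Il4ra moved from -1.07 at steady state to 0.91 with LPS on TC, and Ifnar2 from 0.21 to -0.33.

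The dish changed receptor chains in the M cultures and was not seen to do so in the GM cultures. In GM, edgeR called none of the 10 members at steady state, where 4.69% of all genes were higher on noTC and 2.85% lower, and 1 member (Ifnar1, 0.15) had an unadjusted p under 0.05. With LPS it again called none (2.08% and 0.727% of all genes), with no unadjusted p under 0.05, and DESeq2 called none in either. The steady state intervals lay between -0.35 and 0.30, and those with LPS between -0.23 and 0.92, the widest being that of Il6ra (0.35), so larger differences than these were outside the 95% intervals. Without GM-TC replicate 1, Il6st (0.27, BH-adjusted p = 0.0083) and Ifnar1 (0.24, BH-adjusted p = 0.01) were called. That library was far from its partner, since the chi-square per gene between the replicates was 12.9 in GM-TC and 1.92 to 5.27 in the other 7 groups. In M, 5 members were lower on noTC at steady state (16.1% of all genes were higher and 11.1% lower). With LPS 7 were lower (10.4% and 12.9%), or 8 at an unadjusted p under 0.05. None was higher in either by edgeR, by DESeq2 or at an unadjusted p under 0.05. The 5 were Il10ra, Il10rb, Il4ra, Il13ra1 and Il6ra, the chains for IL-10, IL-4, IL-13 and the ligand-binding chain for IL-6, and none of the 4 interferon receptor chains was called at steady state. The 7 with LPS were Il10ra, Il4ra, Il13ra1, Il6ra, Ifngr1, Ifngr2 and Ifnar1. With library size only 2 of the 7 were called, Il4ra and Il6ra, and without M-TC-LPS replicate 1, M-noTC-LPS replicate 1 or M-noTC-LPS replicate 2 it was 3, 4 and 4. Dendritic cell markers moved with the dish in M, from 23.7 and 22.0 CPM in M-TC to 66.2 and 65.6 in M-noTC. With LPS they went from 19.5 and 20.9 CPM in M-TC-LPS to 52.7 and 47.9 in M-noTC-LPS. The macrophage marker sum, most of it Lyz2, was lower on noTC, at 27700 and 29000 CPM in M-noTC against 35000 and 34400 in M-TC. With LPS it was 18000 and 18800 CPM in M-noTC-LPS against 22200 and 21200 in M-TC-LPS. The part of either shift in these values was not tested. The difference of the LPS response between dishes was called for 3 members in M (10.6% of all genes) and for none in GM, where 0.783% of all genes were called, no unadjusted p was under 0.05 and DESeq2 called none. The difference of the dish contrast between M and GM was called for 4 members at steady state (11.2% of all genes) and 3 with LPS (10.6%), all of them more negative in M. The share of higher calls among all called genes went from 44.5% to 70.5% with library size only for the dish in M with LPS, from 29.4% to 61.1% for the dish by LPS difference in M, and from 35.0% to 67.1% for the dish by growth factor difference with LPS.

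**Figure D5:**
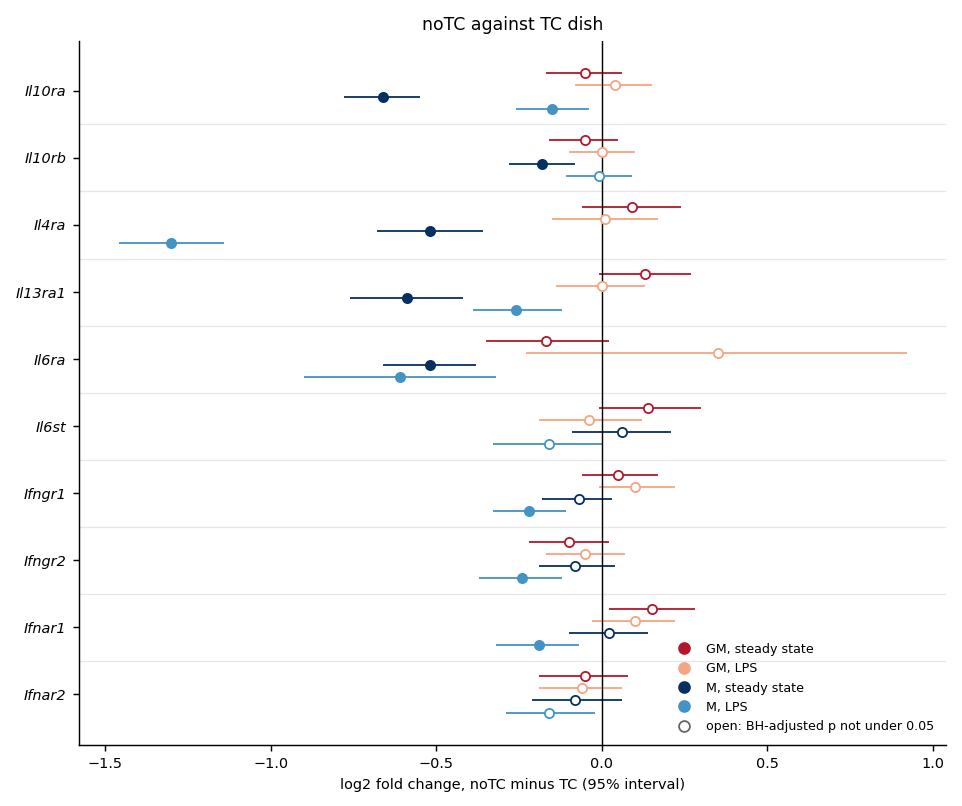
Log2 fold change of noTC over TC (x axis) for each receptor gene in GM and M, at steady state and with LPS, with 95% intervals. Filled points have a BH-adjusted p under 0.05, which holds for none of the GM points. The M points reach -0.66 (Il10ra) at steady state and -1.30 (Il4ra) with LPS.

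The rest of the pathway was followed with lists of partner chains, ligands, kinases and STATs, inhibitors and targets. Of 12 partner chains, 6 passed the filter. Among them Il2rg, the common gamma chain that pairs with Il4ra, rose with LPS in all 4 cultures, by 0.69 (GM-TC), 0.83 (GM-noTC), 1.59 (M-TC) and 1.41 (M-noTC). Il20rb, a chain of the receptors for IL-19, IL-20 and IL-24, rose by 3.24 in GM-TC and 3.10 in M-TC. Lifr, which signals with Il6st for LIF, fell by 1.58 and 1.74 in the same cultures, and Il11ra1, Il27ra and Osmr were not called in GM-TC or M-TC. In M against GM at steady state on TC, Il2rg (-0.65), Il20rb (-1.71), Il11ra1 (-2.71) and Il27ra (-2.99) were lower and Lifr (1.95) higher.

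Of the ligands, 9 of 33 passed the filter, and all 9 rose with LPS in GM-TC and 8 of the 9 in each of the other 3 cultures. Of all tested genes 32.8% (GM-TC) to 37.6% (M-TC) were called as higher. The filter kept a gene with enough counts in any group, so a ligand near 0 at steady state was tested only if it was high with LPS. The count of ligands that rose is therefore partly fixed by the filter. Il6 went from 0.303 and 0.201 CPM in GM-TC to 1950 and 2085 CPM in GM-TC-LPS, and from 0.0399 and 0 CPM in M-TC to 1344 and 1642 CPM in M-TC-LPS, in the same cultures in which Il6ra fell. Il10 was at 0.465 and 0.511 CPM in GM-TC-LPS against 44.1 and 53.7 CPM in M-TC-LPS, and at 0 in both GM-TC libraries against 2.99 and 2.32 CPM in M-TC. Ifnb1 was at 6.15 to 7.26 CPM in the TC libraries with LPS, 8.85 and 9.33 CPM in GM-noTC-LPS, and 14.4 and 15.8 CPM in M-noTC-LPS. Il27 (9.30 in GM-TC and 10.05 in M-TC) and Il19 (8.28 and 10.38) were the other ligands with the largest log2 fold changes.

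Kinases and STATs were all expressed, and 10 of 12 rose with LPS in the GM cultures and 11 of 12 in the M cultures, with none called as lower by edgeR. The kinase Jak2, which serves Ifngr2, rose from 90.9 and 83.8 CPM in GM-TC to 704 and 755 CPM (log2 fold change 3.06), and from 46.5 and 45 CPM in M-TC to 972 and 1070.0 CPM (4.48). Tyk2 rose by 0.76 in GM-TC and 1.56 in M-TC, Jak1 by 0.54 and 1.18, and Jak3 by 0.83 in M-TC, while its value of 0.30 in GM-TC was not called. In the same order, Stat2 rose by 3.09 and 2.19, Irf9 by 1.96 and 0.94, Stat4 by 1.75 and 0.59, Stat3 by 0.86 and 1.87, Stat5a by 2.85 and 2.78, and Stat5b by 0.58 and 0.59. Stat6, which acts below Il4ra, stayed between 149.6 and 165 CPM in all 16 libraries, and its LPS changes of 0.06 and 0.07 in GM and -0.02 and -0.09 in M were not called.

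Among 22 inhibitors and sheddases, 10 rose and 6 fell with LPS in GM-TC, beside 32.8% and 34.2% of all genes, and 11 rose and 7 fell in M-TC (37.6% and 36.4%). Socs3, the feedback inhibitor that binds Il6st, rose by 4.28 in GM-TC and 8.5 in M-TC, and Socs1, which restrains interferon receptors, by 3.53 and 6.81. Usp18, which binds Ifnar2 and blocks its signal, rose by 4.96 in GM-TC, and Cish by 7.46 in M-TC. Socs6 (-1.49), Socs2 (-0.99) and Pias3 (-0.70) fell most in GM-TC, and Pias3 (-1.57), Prkd2 (-1.27) and Socs6 (-0.59) in M-TC. Adam17, which sheds Il6ra, went from 189 and 172 CPM to 430.2 and 437 CPM in GM-TC and from 324 and 336 CPM to 756 and 791 CPM in M-TC.

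Of the genes listed as targets of the receptors, those of IL-10 and the interferons moved mostly upward with LPS. Of all tested genes 32.8% to 37.6% were called as higher. Whether the rises came through these receptors was not tested. All 7 IL-10 targets rose in all 4 cultures, led by Socs3, Il1rn (3.32 in GM-TC and 6.26 in M-TC) and Tnip3 (2.43 and 3.18). All 8 type I interferon targets rose in all 4, with Ifit1 at 9.53, Rsad2 at 9.47 and Ifit2 at 8.25 in GM-TC and Rsad2 at 7.04, Mx1 at 6.37 and Ifit1 at 5.50 in M-TC. At steady state all 8 were higher in M than in GM on both dishes, beside 28.9% (TC) and 30.7% (noTC) of all genes. Their median log2 fold change was 3.92 on TC and 2.55 on noTC. For noTC against TC in GM, 7 of the 8 were called as higher, beside 4.69% of all genes. After subtraction of a share of the other libraries' reads (0.675% from GM-noTC and 0.60% from M-noTC), 1 of the 8 was called as higher there and 1 as lower, and the median of M against GM on noTC was 3.78. That share was set from the noTC excess of genes under 1 CPM on TC and at 100 CPM or more elsewhere. A dish difference in such genes would be subtracted as well, so reads from other libraries and a dish difference cannot be told apart here. Of 8 interferon gamma targets, 7 rose in GM-TC and 6 in M-TC, led by Nos2 (9.53 and 11.28), Cxcl9 (9.22 and 9.60) and Gbp5 (8.13 and 8.09), while Ciita fell by 0.76 in M-TC. Of 10 tested IL-4 and IL-13 targets, 9 were lower in M than in GM on TC and 10 on noTC at steady state (32.6% and 31.4% of all genes). Il4ra and Il13ra1 also differed in that direction, and their part in it was not tested. Several of these targets, such as Ccl17, Ccl22 and Cish, are also known to respond to GM-CSF. Upon LPS challenge on TC, 8 of the 10 were lower in M and 2 higher (33.9% and 32.9% of all genes). There Il4ra was higher in M (0.91) and Il13ra1 lower (-0.23). On noTC 8 were lower and 0 higher (33.5% and 32.6%), with Il4ra at -0.40 and Il13ra1 at -0.48. With LPS, 4 of the 10 rose and 2 fell in GM-TC (32.8% and 34.2% of all genes), and 4 and 3 in GM-noTC (33.6% and 34.0%). In M-TC 6 rose and 1 fell (37.6% and 36.4%), and in M-noTC 5 and 1 (36.4% and 35.9%). Ccl22 (4.35), Ccl17 (1.94) and Cish (1.47) rose and Arg1 (-0.87) and Clec10a (-0.84) fell in GM-TC. In M-TC Ccl22 (8.54), Cish (7.46) and Ccl17 (6.76) rose and Clec10a (-0.99) fell.

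The genes whose pattern was most like that of a member were found by the correlation of log2 CPM over the 16 libraries, among tested genes with a mean of 10 CPM or more. The 16 libraries come from 8 groups of 2, so the values mainly compare group patterns, and they are given without a test. Il10ra was closest to Arl5c (Pearson's r = 0.989) and Psme2b (0.984), and Il13ra1 to Slc49a4 (0.993) and Bcl2a1b (0.991, uncertain because of near-identical paralogs). Il6ra had Cd28 (0.987) among its 2 closest genes. Ifnar1 was closest to Rnf213 (0.992) and Setd1b (0.990), Ifnar2 to Ube2q2 (0.991) and Mark4 (0.984), Il6st to Tsc1 (0.982) and Rnf41 (0.982), and Ifngr1 to Pou2f2 (0.990) and C1qc (0.987). The weaker matches were Il10rb with Ncoa3 (0.955) and Arhgef2 (0.953), and Il4ra with Slc39a7 (0.932). Il4ra and Ifngr2 each had the other among their 2 closest genes (0.924), the only pair of members for which that held, and Slc39a7 was the second gene closest to Ifngr2 (0.896).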

How the data were processed

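Total RNA of 16 BMDM cultures was sequenced after poly(A) enrichment. Reads were aligned by the authors with HISAT2, and the submitters' processing notes also name RSEM, fastp 0.18.0, Bowtie2 2.2.8 and StringTie 1.3.1. The deposited table gives expected counts per gene without normalization. The genome build, annotation and strand setting are not given in the sources used here. Between 6.56% and 8.19% of the values of a library were not whole, and all were rounded. Groups came from the sample titles.

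Low genes were removed by group with edgeR's filter (12514 of 22287 kept), and edgeR 4.0.16 (R 4.3.3) was fitted by its quasi-likelihood test with TMM scaling to all 16 libraries without a replicate block. The common dispersion was 0.00226 (4.75% as a coefficient of variation). Adjusted p-values are Benjamini-Hochberg (BH) values over all tested genes, and an interaction is the difference between a pair of log2 fold changes. With 2 libraries in each group, an exact two-sided permutation p could reach 0.333 at best.

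The members and lists were chosen with earlier results of these data known. Named beside the 10 members are the kinases and STATs, the tested partner chains, in the other lists at most 3 genes that rose and 3 that fell, those with the largest LPS change among genes called in GM-TC or M-TC, and the 2 genes most like each member. Adam17, Il10 and Ifnb1 were named after their values were seen. Alternatives were other scalings (DESeq2's size factors, or no TMM factor), no expression filter, DESeq2 1.42.0, only the libraries of the comparison, a replicate block, a fold change above 1.5 with an unadjusted p under 0.05, removal of a carry-over share of 0.675% (GM) or 0.600% (M) from the steady state noTC libraries (the median over 15 and 19 genes that were under 1 CPM on TC and whose mean elsewhere reached 100 CPM), and leaving out each library. On simulated counts for LPS in M-TC, edgeR called 34 of 50 genes changed 1.5-fold, 40 of 50 changed 2-fold, 50 of 50 changed 3-fold, 48 of 50 changed 4-fold and 6 of 12314 unchanged genes among the 12514. The simulated counts used the common dispersion for every gene and changes balanced in direction. In the data for LPS in M-TC, 37.6% of all genes were higher and 36.4% lower, so the simulation does not bear on the choice of scaling. Exonic lengths came from GENCODE M21 and promoters from RefSeq. Protein sequences were not analysed here. The values of 2 genes that the naming rule selects are not reported here.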

Additional observations from a re-analysis of the deposited data

Results flagged for a closer look

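The tests of a difference between log2 fold changes passed for the values below, each with 2 libraries per group and a BH-adjusted p under 0.05 in edgeR's fit, and none is weighed here.

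Between M and GM, the LPS response differed on TC by 1.99 for Il4ra, 1.20 for Il13ra1, 0.73 for Il6ra, 0.46 for Ifngr2, -0.39 for Ifnar1, -0.47 for Il10rb, -0.49 for Il6st and -0.54 for Ifnar2. On noTC it differed by 1.67 for Il13ra1, 1.29 for Il4ra, 0.31 for Il10ra, 0.24 for Ifngr2, -0.23 for Ifngr1, -0.36 for Il10rb, -0.54 for Il6st, -0.54 for Ifnar1 and -0.61 for Ifnar2. Positive values mean a more positive response in M. The value of Il6ra on TC was 0.57 with a BH-adjusted p of 0.14 without GM-TC-LPS replicate 1. With library size only Il6ra (0.38) and Ifngr2 (0.11) on TC and Il10ra (0.10) and Ifngr2 (0.02) on noTC were not called. On noTC, Ifngr2 also lost its call without any of 5 libraries (BH-adjusted p between 0.084 and 0.14) and without the expression filter (0.067), and Ifngr1 without any of 3 libraries (0.05 to 0.086).

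Between dishes in M, the response was more positive on noTC by 0.51 for Il10ra and 0.33 for Il13ra1 and more negative by -0.78 for Il4ra. Il13ra1 had a BH-adjusted p of 0.048, and of 0.06 in DESeq2, and lost its call without any one library other than M-TC-LPS replicate 2.

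The dish contrast was more negative in M than in GM at steady state by -0.72 for Il13ra1, -0.61 for Il10ra, -0.61 for Il4ra and -0.35 for Il6ra, and with LPS by -1.31 for Il4ra, -0.32 for Ifngr1 and -0.29 for Ifnar1. For Il6ra at steady state the BH-adjusted p was 0.042, a call lost in DESeq2 (0.054) and without any one library other than GM-TC replicate 1, and with LPS its value was -0.96 with a BH-adjusted p of 0.05, just outside the threshold. For Ifnar1 with LPS the BH-adjusted p was 0.03, and 0.056 to 0.15 without any one library other than GM-noTC-LPS replicate 1 and M-TC-LPS replicate 2.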

How the results depend on the processing

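DESeq2's size factors, no expression filter, DESeq2, only the libraries of the comparison, the replicate block and the subtraction of other libraries' reads left the number of members called in each of the 18 comparisons within 1.5 times its value and turned no called direction. Library size only took the called members from 7 to 2 for noTC against TC in M-LPS and from 3 to 1 for the dish by growth factor difference with LPS. It turned the sign of 15 values: with LPS to -0.19 and -0.16 for Il10rb in GM-TC and GM-noTC, -0.12 for Il4ra in M-noTC, -0.36, -0.34 and -0.74 for Ifngr1 in GM-TC, GM-noTC and M-TC, -0.5 and -0.57 for Ifngr2, -0.16 and -0.28 for Ifnar1 and -0.15 and -0.13 for Ifnar2 in M-TC and M-noTC, and for M against GM to 0.23 for Il6st on TC and 0.04 for Ifngr2 on TC and on noTC. The cause was not tested beyond the shift of all genes given above.

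A fold change above 1.5 with an unadjusted p under 0.05 left 5 of 9 members for M against GM on noTC, 4 of 10 on TC with LPS and 2 of 8 on noTC with LPS, 2 of 5 and 2 of 7 for the dish in M and M-LPS, 3 of 8 and 3 of 9 for the growth factor by LPS differences on TC and noTC, and 1 of 3 for the dish by LPS difference in M.

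Without 1 library at a time, the members called with LPS ranged from 8 to 9 in GM-TC, 9 to 9 in GM-noTC, 9 to 9 in M-TC and 7 to 8 in M-noTC. M against GM ranged from 8 to 10 on TC, 7 to 9 on noTC, 8 to 10 on TC with LPS and 8 to 8 on noTC with LPS. The dish ranged from 0 to 2 in GM, 0 to 0 in GM-LPS, 4 to 5 in M and 3 to 5 in M-LPS, and the differences from 7 to 9 for growth factor by LPS on both dishes, 0 to 0 and 2 to 3 for dish by LPS in GM and M, 3 to 5 for dish by growth factor at steady state and 2 to 4 with LPS. A group with 1 library left was assumed to vary like the others. Deviations of same-numbered libraries correlated between -0.064 and 0.02 over the 12 comparisons, so the numbers are not taken to pair them. The replicate block moved the count for LPS in GM-TC from 9 to 8 (Ifngr2, -0.13, BH-adjusted p = 0.052) and changed no other count.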
